A study of Mus musculus with 6 samples.

Results

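The genes described here encode 10 secreted proteins that recruit or act on myeloid cells: the chemokines Ccl2, Ccl7, Ccl5, Cxcl1, Cxcl10, Cxcl12 and Cx3cl1, the growth factor Csf1, and the cytokines Il33 and Mif. They were taken by symbol from the gene list of the files, and all 10 were found among 54446 genes listed. Single-cell RNA sequencing had been done on 2 libraries of GL261 and 4 of GL261-GSCs. GL261 is a mouse glioma line, labelled as a glioblastoma cell and grown with fetal calf serum in a differentiation medium. GL261-GSCs were derived from it, are labelled as glioblastoma stem cells and were grown in a defined medium. The medium and the cell label change together and cannot be told apart in any comparison here. No allele, treatment, time point or sorting is given for either group, and no myeloid cell is named in the labels. The protocol names cells and neurospheres, dissociated and exposed to a detergent buffer before droplet capture for 5′ libraries (10x Genomics), and does not say whether cells or nuclei were loaded.

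Per library, 4264 to 7275 cells were called, with 33320530 to 79472306 unique molecular identifiers (UMIs, 1 per captured RNA molecule) and a median of 6670 to 15478 UMIs per cell. The labels do not say whether replicates are separate cultures, so p-values measure only the spread between libraries, which may be technical. Any pair of libraries shared 32 to 59 called cell barcodes. GL261-GSCs replicates 3 and 4 differed from replicates 1 and 2 in several genes named below. Fits with only 1 of these pairs are given for some of the 10 genes, and as counts for the lists of related genes. Replicate 4 had the lowest depth, a median of 6670 UMIs per cell. Cells held 41.2% of its UMIs, against 56.7% to 65.7% in the other libraries. Of the stem cell markers, Sox2 and Olig2 were higher in GL261-GSCs, Nes and Cd44 were lower, and Prom1 was barely seen, with 3 UMIs in GL261 against 8. Of 14 myeloid markers, 11 stayed below 1 CPM (UMIs of a gene per 1000000 UMIs of a TMM-scaled library) in every library and C1qa had 0 UMIs. The summed level of those 14 markers was 25.9 to 26.2 CPM in GL261 and 9.94 to 24.0 CPM in GL261-GSCs, most of it from Csf1r, Lyz2 and Cd68.

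Chemokines are small secreted proteins that bind G protein-coupled receptors and guide cells along gradients. Ccl2 and Ccl7 draw monocytes through Ccr2, Ccl5 draws T cells and monocytes, Cxcl10 draws activated T cells and NK cells through Cxcr3, and Cx3cl1 can tether microglia and monocytes through Cx3cr1. In glioma, colony stimulating factor 1 (Csf1) sustains microglia and macrophages through Csf1r, and tumour-derived chemokines are known for bringing monocytes from blood into the tumour. Il33 is a nuclear cytokine released from damaged cells that signals through Il1rl1 and Il1rap, and Mif binds Cd74, with Cd44 as a partner.

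Of the 10 genes, 8 had enough UMIs to be tested and 3 changed. Il33 was 10.5 times higher in GL261-GSCs by the ratio of mean CPM. Cxcl10 was 11.6 times lower and Csf1 was 3.36 times lower. Ccl2, Ccl7, Ccl5, Cx3cl1 and Mif did not pass the test, and Cxcl1 and Cxcl12 had too few UMIs to enter it. The test was edgeR's quasi-likelihood test on UMIs summed over the cells of each library, with the Benjamini-Hochberg adjusted p taken over 18439 genes and a threshold of 0.05. In that fit 29.9% of all genes passed, 15.8% as higher in GL261-GSCs and 14.1% as lower, so that 3 of 8 lies near the background. The values of the 2 groups did not overlap for Il33, Mif, Cxcl10 and Csf1, 4 of 8 genes, against 56.7% of all genes tested. Il33 and Mif lay higher in GL261-GSCs, as did 28.7% of all genes, and Cxcl10 and Csf1 lower, as did 28%. With library-size scaling in place of TMM, the middle of all log2 fold changes moved by 0.15 and the calls split into 3491 higher and 2034 lower, against 2920 and 2594. All directions of the 8 genes were the same under that scaling. Under the alternatives named below, the background was 30% of all genes with library-size scaling, 36.7% with DESeq2, and 39.8% and 54.9% with only GL261-GSCs replicates 1 and 2 or 3 and 4. It fell to 10.3% and 9.3% without GL261 replicate 1 or 2, and was 33.8%, 27.3%, 22.7% and 30% without GL261-GSCs replicates 1 to 4. Calls lost without a GL261 library are thus read against a smaller background.

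**Figure D1:**
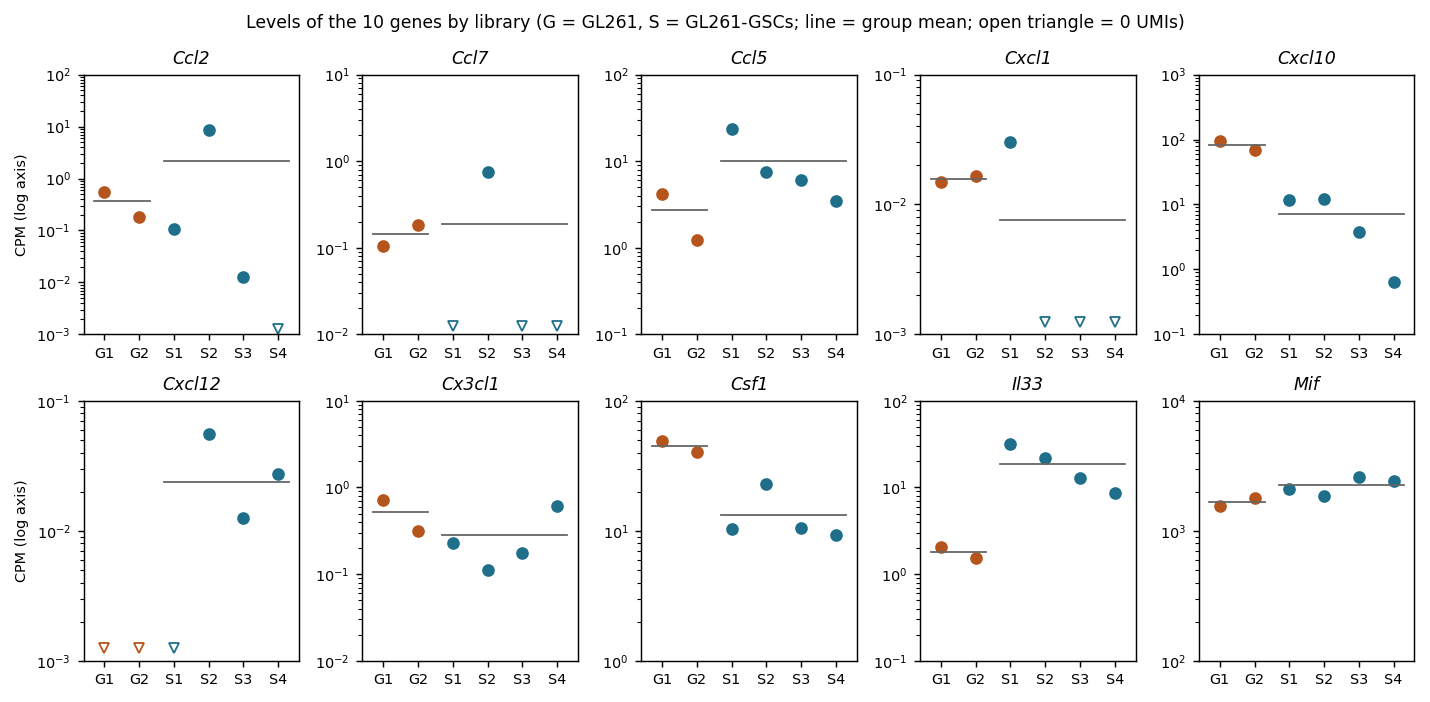
CPM (log axis, with a range of its own in each panel) of the 10 genes in each library, G1 and G2 for GL261 and S1 to S4 for GL261-GSCs. Points are libraries, lines are group means and open triangles mark 0 UMIs, drawn at the bottom of the axis. Cxcl10 and Csf1 lie higher in both GL261 libraries than in any GL261-GSCs library, Il33 lies lower, and Ccl2 and Ccl7 are high in S2 alone.

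Promoters are shown for the 3 genes that changed. Windows of 250 bases before to 50 after a transcript's start (RefSeq, GRCm38.p6) were found for 7 of the 10 genes, in 8 windows, since Il33 has a pair of starts. The set of windows used held none for Ccl2, Ccl7 and Ccl5, although all are annotated protein-coding genes on chromosome 11. A set of 5 motifs was searched on both strands: the kappaB motif bound by NF-kB, the interferon-stimulated response element (GAAA, any 2 bases, GAAA), the STAT element TTCNNNGAA, the AP-1 element TGANTCA and the TATA box TATAAA. Over 32851 windows of 300 bases they occurred in 8.46%, 3.44%, 8.30%, 7.81% and 13.6% in that order. The 250 bases before each start follow, 5′ to 3′ along the gene's strand, with every match in capitals.
Cxcl10: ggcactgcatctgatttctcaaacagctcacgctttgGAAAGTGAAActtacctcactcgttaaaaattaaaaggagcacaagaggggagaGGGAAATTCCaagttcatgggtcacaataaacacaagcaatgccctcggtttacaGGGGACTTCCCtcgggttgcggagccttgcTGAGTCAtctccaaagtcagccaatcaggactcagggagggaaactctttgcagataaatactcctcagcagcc
Csf1: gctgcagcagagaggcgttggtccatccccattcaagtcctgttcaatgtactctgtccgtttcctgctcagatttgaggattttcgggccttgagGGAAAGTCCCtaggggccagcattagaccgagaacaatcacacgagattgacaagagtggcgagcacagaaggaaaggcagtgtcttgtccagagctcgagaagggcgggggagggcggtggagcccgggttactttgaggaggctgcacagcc
Il33 first start: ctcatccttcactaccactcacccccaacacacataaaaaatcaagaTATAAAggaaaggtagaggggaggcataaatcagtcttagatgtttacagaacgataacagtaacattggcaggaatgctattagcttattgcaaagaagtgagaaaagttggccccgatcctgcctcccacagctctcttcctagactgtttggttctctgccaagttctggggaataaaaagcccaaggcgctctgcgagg
Il33 second start: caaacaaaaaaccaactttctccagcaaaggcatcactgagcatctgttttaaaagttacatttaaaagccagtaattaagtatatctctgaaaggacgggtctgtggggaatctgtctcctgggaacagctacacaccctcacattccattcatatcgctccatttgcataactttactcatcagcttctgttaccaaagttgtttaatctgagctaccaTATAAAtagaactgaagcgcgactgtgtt

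The Cxcl10 window (chr5:92348890-92349139, minus strand) held 3 kinds of motif: GAAAGTGAAA 213 bases before the start, kappaB matches 159, 104 and 103 bases before it, the last pair overlapping, and TGAGTCA 74 bases before it. The Csf1 window (chr3:107760470-107760719, minus strand) held a single kappaB match on the opposite strand, 154 bases before the start. Both genes that fell carry a kappaB match, as does Cxcl1, which was barely detected, and as do 8.46% of all windows. The part of these matches in the levels was not tested. The Il33 windows (chr19:29924863-29925112 and chr19:29945540-29945789, plus strand) held TATAAA 203 and 29 bases before their starts, and the second lies in an intron of the longer transcript. Cx3cl1 held TATAAA, and the windows of Mif and Cxcl12 held none of the 5 motifs. A match is a sequence feature only; no binding was measured.

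Ccl2 and Ccl7 encode monocyte chemoattractants that share the receptor Ccr2 and lie 8.26 kilobases apart on chromosome 11. Ccl2 measured 0.548 and 0.182 CPM in GL261 replicates 1 and 2, and 0.106, 8.46, 0.0125 and 0 CPM in GL261-GSCs replicates 1 to 4. GL261-GSCs replicate 2 alone was high, and the other 3 lay below both GL261 libraries. The fitted log2 fold change (GL261-GSCs over GL261) was 2.55 ± 2.45 (SE; edgeR adjusted p = 0.463). Without GL261-GSCs replicate 2 it turned to -3.01 (edgeR adjusted p = 0.0788), and with GL261-GSCs replicates 3 and 4 only it was -5.12 and called (edgeR adjusted p = 0.00421). The direction of Ccl2 therefore rests on 1 library.

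That library held 613 Ccl2 UMIs in 78 of 5870 cells (1.33%), where free RNA alone would give a UMI to 0.241%. Its highest cell had 182 of them, and its 10 highest cells had 70.3%. In GL261 replicate 1, 34 of 37 Ccl2 UMIs lay in 1 cell. Of the 78 cells in GL261-GSCs replicate 2, 74 (94.9%) had a UMI of Olig2, an oligodendrocyte lineage factor expressed by these cultures, against 92.9% of the cells without Ccl2. The share that free RNA would give for Olig2 was not computed, and nearly all cells had a UMI, so that these shares do not tell cells apart. None of the 78 had a UMI of the 11 myeloid markers other than Csf1r, Lyz2 and Cd68, against 0.673% of the others, a share that 78 cells are too few to detect. In GL261 replicate 2, the 1 cell with at least 5 Ccl2 UMIs did carry such a marker. Csf1r, Lyz2 and Cd68 held most of the UMIs of the myeloid markers, so that the 11 kept could miss a myeloid cell. The median depth of the 78 cells, 13055 UMIs, was near that of the cells without Ccl2, 11868 UMIs.

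Ccl7 gave 7 and 11 UMIs in GL261 and 0, 55, 0 and 0 in GL261-GSCs. It too was high in GL261-GSCs replicate 2 alone (log2 fold change 0.49 ± 1.83 SE; edgeR adjusted p = 0.863). All 13 cells with a Ccl7 UMI, over all libraries, also had a Ccl2 UMI. In GL261-GSCs replicate 2 these were 11 cells, and 1 of them held 22 of the 55 UMIs. In GL261 replicate 2 all 11 Ccl7 UMIs lay in the cell that carried a myeloid marker.

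Ccl5, a chemokine of monocytes and T cells, measured 4.18 and 1.24 CPM in GL261 and 23.5, 7.51, 6.003 and 3.52 CPM in GL261-GSCs. Its mean was higher in GL261-GSCs, but replicate 4 lay below GL261 replicate 1, so that the groups overlap. The log2 fold change was 1.90 ± 0.89 (SE), and it did not pass the test (edgeR adjusted p = 0.149). DESeq2 called it (adjusted p = 0.0328), as did the replicate block, which rests on replicates 1 and 2 of each group. The log2 fold change of Ccl5 ranged from 1.08 to 3.02 over the fits that left out 1 library. Like Ccl2, its RNA sat in few cells: in GL261-GSCs replicate 1, 1548 UMIs lay in 172 of 4264 cells, the highest of which held 304. Those cells were 4.03% of the library, where free RNA alone would give a Ccl5 UMI to 1.54%, so that a single Ccl5 UMI is no mark of a cell that expressed it. The 10 highest cells held 58.5% of the UMIs there, 63.4%, 61.0% and 80.5% in GL261-GSCs replicates 2 to 4, and 75.2% and 92.0% in GL261. Of 454 cells with a Ccl5 UMI over all libraries, 4 had a UMI of the 11 myeloid markers (0.881%), against 0.473% of cells without Ccl5. All 4 were in GL261-GSCs replicate 1, where they were 2.33% of the cells with Ccl5, against 0.635% of those without, and 3 of them were among its 54 cells with at least 5 Ccl5 UMIs (5.56%). The cells with Ccl5 in the other 5 libraries had 0. The part of such cells in the Ccl5 level was not tested.

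No cell held both Ccl2 and Ccl5: 0 of the 89 cells with a Ccl2 UMI had one of Ccl5. In GL261-GSCs replicate 2, which had the most, 78 cells had Ccl2 and 80 had Ccl5, and Ccl5 was seen in 1.38% of cells without Ccl2. At that share few cells with both would be seen, and the 0 is given as a count, not as a difference.

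**Figure D2:**
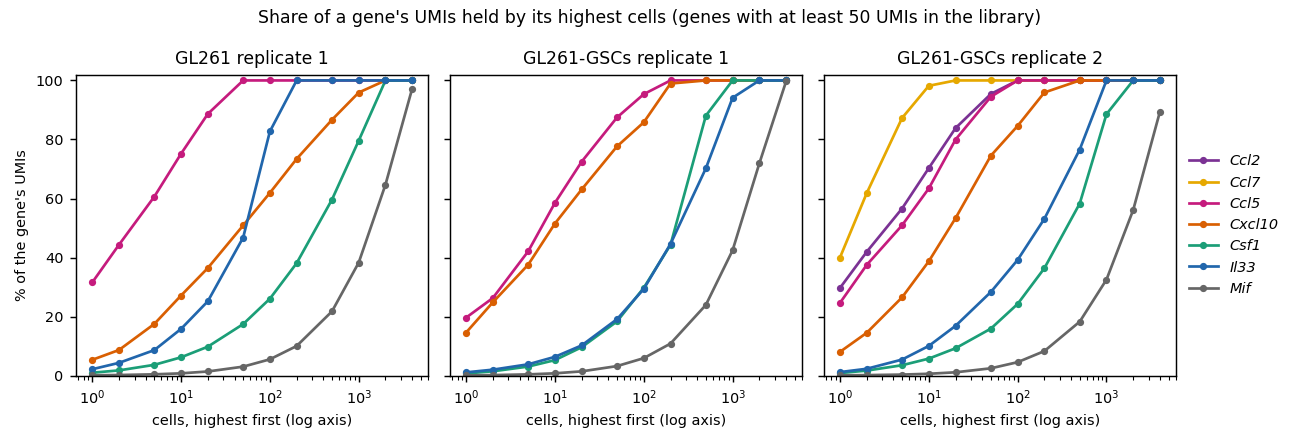
Share of a gene's UMIs (percent) held by its highest cells, against the number of cells counted from the highest (log axis), in 3 libraries, for genes with at least 50 UMIs there. Each line is a gene. Ccl7, with 55 UMIs in GL261-GSCs replicate 2, rises most steeply there, with 98.2% of them in 10 cells. Ccl2 and Ccl5 follow, with 10 cells holding 58.5% to 75.2% of the UMIs, Cxcl10 comes next, and Csf1, Il33 in GL261-GSCs and Mif rise late.

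Cxcl10 (chr5:92346638-92348889, minus strand, GRCm38), a chemokine induced by interferon and by NF-kB, was among the genes that fell. It measured 94.3 and 68.6 CPM in GL261 and 11.5, 12.2, 3.81 and 0.632 CPM in GL261-GSCs (mean 81.4 ± 18.2 SD, n = 2, against 7.04 ± 5.72 SD, n = 4). Both GL261 libraries were far above all GL261-GSCs libraries, and within GL261-GSCs replicates 3 and 4 were below replicates 1 and 2. The log2 fold change was -3.52 ± 0.88 (SE; edgeR adjusted p = 0.0245). With GL261-GSCs replicates 1 and 2 only, and with replicates 3 and 4 only, Cxcl10 was called lower as well, with log2 fold changes of -2.77 and -5.02. The call was lost without GL261 replicate 1 (edgeR adjusted p = 0.123), GL261 replicate 2 (0.0943) or GL261-GSCs replicate 3 (0.0648), with the direction unchanged in all 6 fits that left out 1 library.

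Per cell, the shares were compared after each cell had been thinned to 2000 UMIs, a depth that no called cell fell below. A Cxcl10 UMI was then found in 7.57% and 6.68% of GL261 cells and in 1.34%, 1.29%, 0.660% and 0.155% of GL261-GSCs cells. The shares did not overlap (exact permutation test over 15 splits, p = 0.133, the smallest these libraries can give). Before thinning the group means were 25.7% and 2.86%. RNA free in the droplets was estimated from small barcodes, those of 100 UMIs or more that stayed below 1000. Each cell was assumed to hold, before thinning, their median count, 472 to 679 UMIs by library, with their mix of genes. Small barcodes could also hold RNA of damaged cells, and the assumption was not tested. On it, free RNA alone would give a Cxcl10 UMI to 0.891% and 0.606% of cells in GL261 and to 0.0746% to 0.205% in GL261-GSCs. In GL261-GSCs replicate 4 the 95% exact interval of the share, 0.0624% to 0.319%, includes that free RNA value of 0.0746%, so that 7 cells with a UMI could not be told from background at that depth. Without thinning, 21 of 4512 cells there had one (0.465%, 95% exact interval 0.288% to 0.711%), against 0.190% from free RNA. The level of Cxcl10 in the small barcodes, per 1000000 UMIs and without TMM scaling, was 1.02 to 1.56 times that in cells in GL261 and in GL261-GSCs replicates 1 and 2, 2.56 times in replicate 3 and 4.49 times in replicate 4.

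Cxcl10 was unevenly spread within GL261. In replicate 1, 1261 of 4808 cells had a UMI, 104 had at least 10, the highest had 340, and the 1% of cells with the most held 50.6% of all Cxcl10 UMIs. In replicate 2 the corresponding share was 46.0%. For Csf1 in the same libraries it was 17.2% and 17.6%. Cxcl10 thus came from a minority of high cells in GL261, where Csf1 was more even.

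The gene whose counts followed Cxcl10 most closely across GL261 cells was Isg15, a ubiquitin-like protein induced by interferon. The mean Pearson correlation of log2(UMIs + 1) over 2 libraries was 0.19, across cells that share a library and were thinned to 1 depth, and no other of 5699 genes reached 0.1. After thinning, Isg15 was seen in 42.0% of GL261 replicate 1 cells with Cxcl10 and 30.9% of those without. In replicate 2 the shares were 18.9% and 10.6%. In GL261-GSCs replicates 1 to 4 they were 54.4% and 10.0%, 43.4% and 5.21%, 52.1% and 4.44%, and 14.3% and 2.93%, the last resting on 7 cells with Cxcl10. Isg15 was more frequent beside Cxcl10 in all 6 libraries, and the 95% exact intervals, which cover counting error only, were separate in all but GL261-GSCs replicate 4. Of the 18 genes of the interferon axis, 13, 13, 14, 15, 9 and 6 were seen more often in cells with Cxcl10 than without, in the same order of libraries. For the 24 genes of the NF-kB pathway the counts were 17, 14, 14, 16, 16 and 8. The share over all genes was not computed, so that these counts cannot tell whether either list differs from other genes.

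**Figure D3:**
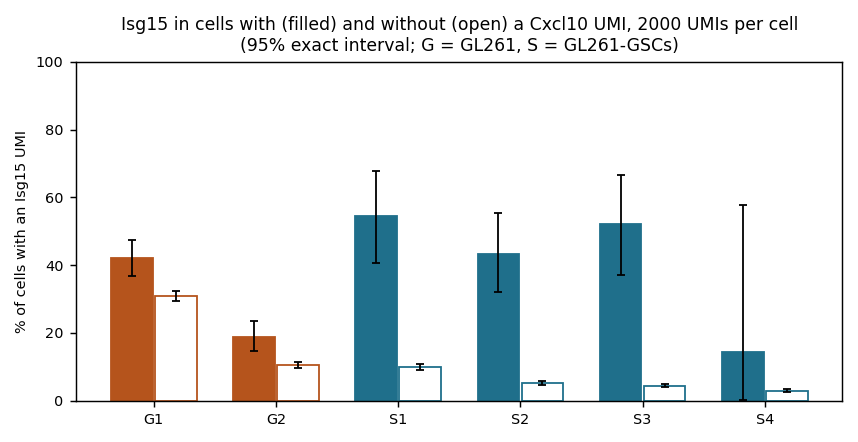
Percent of cells with an Isg15 UMI among cells with (filled) and without (open) a Cxcl10 UMI, in each library, G1 and G2 for GL261 and S1 to S4 for GL261-GSCs, with 95% exact intervals. The gap is 42.0% against 30.9% in G1 and 54.4% against 10.0% in S1; S4 has 7 cells with Cxcl10 and a wide interval.

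Cells with Ccl5 had Cxcl10 more often than cells without it in 5 of 6 libraries. After thinning, 7 of 67 Ccl5 cells in GL261-GSCs replicate 1 had a Cxcl10 UMI (10.4%, against 1.19% of the other cells). In GL261-GSCs replicates 2 and 3 the shares were 14.3% against 1.22% and 11.4% against 0.595%, each with 5 cells holding both. In GL261 replicates 1 and 2 they were 35% against 7.46% and 42.9% against 6.63%, from 7 and 3 cells. GL261-GSCs replicate 4 had 0 of 16, against 0.156% of the other cells. Before thinning the shares were 16.3% against 4.40%, 17.5% against 3.83%, 11.5% against 1.95% and 0% against 0.469% in GL261-GSCs, and 44.7% against 26.0% and 68.8% against 25.1% in GL261. All counts of cells with both genes are small.

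Cxcl1, a neutrophil chemokine that binds Cxcr2, was near the limit of detection. It had 1 and 1 UMIs in GL261 and 2, 0, 0 and 0 in GL261-GSCs, where the 2 lay in 1 cell that carried a myeloid marker. Cxcl12, the ligand of Cxcr4 and Ackr3, had 0 and 0 UMIs in GL261 and 0, 4, 1 and 1 in GL261-GSCs. Neither could be compared, and a count of 0 allows up to 3 UMIs in a library.

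Cx3cl1, the membrane-bound chemokine also called fractalkine, measured 0.726 and 0.315 CPM in GL261 and 0.227, 0.110, 0.175 and 0.604 CPM in GL261-GSCs. The groups overlap through GL261-GSCs replicate 4, where 1 cell held 9 of the 22 UMIs. The log2 fold change was -0.98 ± 0.69 (SE; edgeR adjusted p = 0.318). It ranged from -1.58 to -0.243 over the fits that left out 1 library. By cells, a UMI was found in 0.125% and 0.0800% of GL261 and in 0.0170% to 0.0665% of GL261-GSCs at 2000 UMIs per cell. These shares did not overlap (exact permutation p = 0.133, the smallest these libraries can give), but they rest on 1 to 6 cells per library, and at 1000 UMIs per cell they overlapped (exact permutation p = 0.4). Cx3cl1 was thus lower in GL261-GSCs by group mean on both scales, without passing the test.

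Csf1 (chr3:107741048-107760469, minus strand) is the growth factor of the set. It measured 48.7 and 40.3 CPM in GL261 and 10.4, 22.8, 10.5 and 9.34 CPM in GL261-GSCs (44.5 ± 5.95 SD, n = 2, against 13.3 ± 6.38 SD, n = 4). Both GL261 libraries were above all GL261-GSCs libraries, among which replicate 2 was high. The log2 fold change was -1.75 ± 0.37 (SE; edgeR adjusted p = 0.0133). It was -1.41 with GL261-GSCs replicates 1 and 2 only and -2.14 with replicates 3 and 4 only, both called. Csf1 was called in the fits that left out a GL261-GSCs library, and lost without GL261 replicate 1 (edgeR adjusted p = 0.0965) or replicate 2 (0.0687). In cells thinned to 2000 UMIs, it was found in 7.67% and 6.24% of GL261 and in 2.42%, 4.82%, 2.23% and 2.39% of GL261-GSCs (exact permutation p = 0.133). Free RNA would give 0.0656% to 0.210%.

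Across GL261 cells the genes most like Csf1 were Cyr61 (mean correlation 0.10) and Thbs1 (0.10), which encode matrix-associated proteins. These are weak, as sparse counts give, and no other gene reached 0.1. Csf1 was seen more often in cells with Cxcl10 than in cells without it in 5 of 6 libraries. After thinning, Csf1 was found in 8.52% of GL261 replicate 1 cells with Cxcl10 and 7.61% of the others, and in 10.2% and 5.96% in replicate 2. In GL261-GSCs replicates 1 to 3 the shares were 7.02% against 2.35%, 14.5% against 4.69% and 8.33% against 2.19%, with 4, 11 and 4 cells holding both. In GL261-GSCs replicate 4, 0 of 7 cells with Cxcl10 had Csf1.

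Il33 (chr19:29925114-29960718, plus strand) went the other way from Cxcl10 and Csf1. It measured 2.06 and 1.52 CPM in GL261 and 31.7, 22.1, 12.8 and 8.57 CPM in GL261-GSCs (1.79 ± 0.378 SD, n = 2, against 18.8 ± 10.3 SD, n = 4). All GL261-GSCs libraries were above both GL261 libraries, with replicates 1 and 2 above 3 and 4. The log2 fold change was 3.39 ± 0.60 (SE; edgeR adjusted p = 0.0072). It was lost without GL261 replicate 1 (edgeR adjusted p = 0.0603) or replicate 2 (0.0807), and it ranged from 3.03 to 3.65 over the 6 fits that left out 1 library. With GL261-GSCs replicates 1 and 2 only the log2 fold change was 3.91, and with replicates 3 and 4 only it was 2.60, both called.

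In thinned cells Il33 was found in 0.416% and 0.240% of GL261 and in 5.46%, 3.54%, 2.21% and 1.93% of GL261-GSCs (exact permutation p = 0.133). Free RNA would give 0.0192% and 0.0327% in GL261 and 0.278% to 0.667% in GL261-GSCs, below the shares in every library. Il33 was spread over many cells in GL261-GSCs replicate 1. There 1123 of 4264 cells had a UMI, and the 10 highest held 6.36% of the total. In replicates 2 to 4 the 10 highest held 10.0%, 8.40% and 12.5%. The 1% of cells with the most held 17.4% of Il33 UMIs in replicate 1 and 30.8%, 28.2% and 31.1% in replicates 2 to 4. The level of Il33 in the barcodes with few UMIs was 1.44 to 1.86 times that in cells, in all 6 libraries. For Csf1 the same ratio was 0.390 to 0.740. The 2 genes thus differed in where their RNA was found, and what sets the ratio was not tested.

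**Figure D4:**
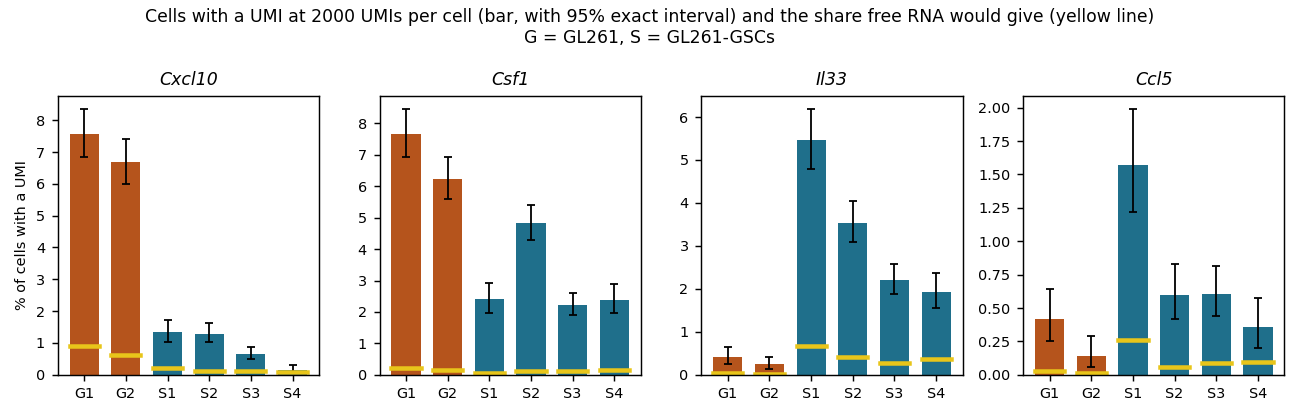
Percent of cells with a UMI of Cxcl10, Csf1, Il33 and Ccl5 in each library at 2000 UMIs per cell (bars, with 95% exact intervals), and the share that free RNA would give (yellow lines). Cxcl10 and Csf1 are higher in G1 and G2, the GL261 libraries, Il33 is higher in S1 to S4, the GL261-GSCs libraries, and the bars of Ccl5 overlap between the groups.

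Mif measured 1558 and 1775 CPM in GL261 and 2100.2, 1848, 2611 and 2402 CPM in GL261-GSCs (1667 ± 153 SD, n = 2, against 2240.3 ± 335 SD, n = 4). All GL261-GSCs libraries were above both GL261 libraries, but GL261-GSCs replicate 2 was close to GL261 replicate 2. The log2 fold change of 0.43 ± 0.18 (SE) did not pass the test (edgeR adjusted p = 0.123). It passed with library-size scaling (edgeR adjusted p = 0.0456) and with GL261-GSCs replicates 3 and 4 only (0.0172). Mif has processed pseudogenes of near-identical sequence, so that its count is uncertain to the extent that reads could not be assigned to Mif alone.

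Mif was in nearly all cells of both groups. After thinning, 89.1% and 93.3% of GL261 cells and 93.0%, 92.0%, 93.1% and 91.9% of GL261-GSCs cells had a UMI. Free RNA alone would give 13.1% to 45.7%. The 5 genes most like Mif across GL261-GSCs cells were Rpl41 (mean correlation 0.56), Rplp0, Rpl32, Rps2 and Rpl37 (0.50), all of which encode ribosomal proteins. Ddt, the homologue of Mif, was lower in GL261-GSCs (log2 fold change -0.88 ± 0.14 SE; edgeR adjusted p = 0.00472), and that call was lost without GL261 replicate 2 (0.0725).

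**Figure D5:**
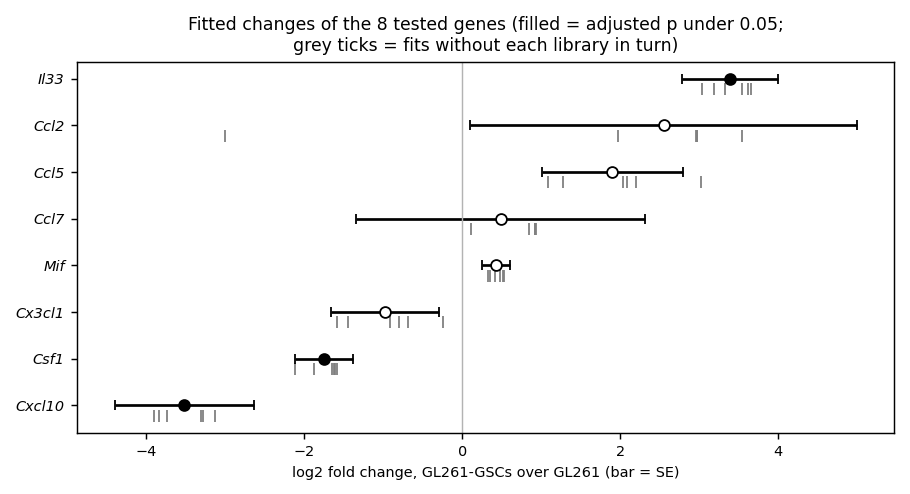
Fitted log2 fold change, GL261-GSCs over GL261, of the 8 tested genes, with the SE as bars; filled points have an adjusted p under 0.05. Grey ticks are the fits that leave out each library in turn. Those of every gene but Ccl2 stay on 1 side of 0, whether it was called or not, but Ccl7 lacks a tick. Ccl7 had too few UMIs to be fitted without GL261-GSCs replicate 2, the library in which it was high. For Ccl2, 1 tick, without GL261-GSCs replicate 2, lies at -3.01.

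Few receptors of these ligands were detected well in the same cells. Of 16 receptor genes 7 were tested, 0 rose and 3 fell, against 15.8% and 14.1% of all genes. The median of the 7 log2 fold changes was -0.03, against 0.04 over all genes. Ccr3, Cxcr4 and Ackr1 had 0 UMIs in every library, and 11 of the 16 stayed under 1 CPM. Ccr2, the receptor of Ccl2 and Ccl7, had 1 UMI over both GL261 libraries and 14, 44, 3 and 0 in GL261-GSCs replicates 1 to 4. It did not pass the test (log2 fold change 4.54 ± 2.02 SE; edgeR adjusted p = 0.133), and the groups overlap. Ccr2 was called higher with GL261-GSCs replicates 1 and 2 only and with the replicate block. Cd74 was called higher with replicates 3 and 4 only. Of the 78 Ccl2 cells in GL261-GSCs replicate 2, 1 had a Ccr2 UMI.

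The 3 receptors that fell were Ackr3, Cd44 and Csf1r, the last named after its values were seen. Ackr3, a scavenger of Cxcl12, measured 63.9 and 71.0 CPM in GL261 and 0.470, 1.32, 0.0750 and 0.110 CPM in GL261-GSCs. Its log2 fold change was -7.03 ± 0.90 (SE; edgeR adjusted p = 0.0020). Csf1r, the receptor of Csf1, measured 12.9 and 12.6 CPM in GL261 and 0.243, 0.235, 0.238 and 0.192 CPM in GL261-GSCs (log2 fold change -5.79 ± 0.21 SE; edgeR adjusted p = 3.19e-05). Csf1 and Csf1r were thus both lower in GL261-GSCs. Of the 14 myeloid markers, which include Csf1r, 4 were tested and Lyz2 fell as well. Markers of other cell types moved between the same groups: the summed level of 6 fibroblast and pericyte markers was 252 to 287 CPM in GL261 and 11.1 to 26.9 CPM in GL261-GSCs, with Col1a1 and Pdgfrb lower. The astrocyte markers Gfap and Aldh1l1 and the endothelial marker Cdh5 were lower, and the astrocyte marker S100b and the neuronal marker Syt1 were higher. The part of these markers in the changes of the 10 genes was not tested. Cd44 fell by 1.19 on the log2 scale (SE 0.17; edgeR adjusted p = 0.00325). Il1rap, a subunit of the Il33 receptor, did not pass the test at 30.9 to 42.5 CPM. Il1rl1, the subunit that binds Il33, had 9 and 2 UMIs in GL261 and 0 in each GL261-GSCs library. These were too few for the main fit, and Il1rl1 was called lower in the fit without the filter on low counts.

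Among 41 other ligands of the same families 16 were tested, 2 rose and 6 fell, against 15.8% and 14.1% of all genes. The median of their log2 fold changes was -0.19, against 0.04 over all genes. With GL261-GSCs replicates 1 and 2 only 3 rose and 7 fell, and with replicates 3 and 4 only 6 rose and 8 fell. Over all genes 39.8% and 54.9% were called in those fits. Those higher were Ccl25, a thymic and gut chemokine (1.15 ± 0.13 SE; edgeR adjusted p = 0.00104), and Il18, an inflammasome-processed cytokine, which went from 1.97 and 1.24 CPM in GL261 to 6.05 to 7.12 CPM (edgeR adjusted p = 0.00237). Il11, a cytokine of the Il6 family, was the most abundant that fell (-2.12 ± 0.30 SE; edgeR adjusted p = 0.00288). The others were Cxcl11, a neighbour of Cxcl10 annotated as a polymorphic pseudogene in this build, Ddt, Il34, Il6 and Tslp. Il34, the second ligand of Csf1r, measured 4.61 and 4.24 CPM in GL261 and 0.650 to 2.25 CPM in GL261-GSCs. Without either GL261 library 2 rose and 4 fell. The Cxcl11 call was lost without GL261 replicate 1 (edgeR adjusted p = 0.115). Csf1 and Il34 were both lower, although the Il34 call was lost without either GL261 library or GL261-GSCs replicate 3 or 4 (edgeR adjusted p up to 0.134).

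Of 24 genes of the NF-kB pathway 23 were tested, 0 rose and 6 fell, against 15.8% and 14.1% of all genes. Their median log2 fold change was -0.50, against 0.04 over all genes. The 6 were Nfkb2, Nfkbib, Tnfaip3, Vcam1, Ikbkg and Tlr2. Ikbkg is a subunit of the kinase that activates the pathway. Nfkb2, which encodes the p100 precursor, had the change best resolved (-1.67 ± 0.16 SE; edgeR adjusted p = 0.00057). Tnfaip3, a feedback inhibitor, fell by 1.15 on the log2 scale. Without GL261 replicate 1 the count was 1, and without GL261 replicate 2 it was 2. Some genes rose under other settings: 2 rose and 7 fell without GL261-GSCs replicate 1, 2 rose and 8 fell with DESeq2, and 2 rose and 16 fell with GL261-GSCs replicates 3 and 4 only. Over all genes 33.8%, 36.7% and 54.9% were called in those settings. With replicates 1 and 2 only the counts were 0 and 6, where 39.8% of all genes were called. Nfkbia, another feedback target, was at 70.9 and 86.4 CPM in GL261 and 43.5 to 75.2 CPM in GL261-GSCs and was called only in the fit with replicates 3 and 4 alone among those run.

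Of 18 genes of the interferon axis, all tested, 3 rose and 4 fell, against 15.8% and 14.1% of all genes. Their median log2 fold change was -0.45, against 0.04 over all genes. The 3 higher were the receptor chains Ifngr2 (1.39 ± 0.33 SE; edgeR adjusted p = 0.0212) and Ifnar1 (1.26 ± 0.38 SE; 0.0467) and the kinase Jak2 (0.98 ± 0.24 SE; 0.0213). The 4 lower were the factor Irf3 and the interferon-induced genes Isg15, Ifit1 and Ifit3. Isg15 measured 274 and 83.1 CPM in GL261 and 77.0, 44.8, 37.4 and 18.9 CPM in GL261-GSCs. GL261 replicate 1 was far above replicate 2, which lay near GL261-GSCs replicate 1, and the Isg15 call (edgeR adjusted p = 0.043) was lost in 4 of the 6 fits that left out 1 library, those without GL261 replicate 1 (0.406) or GL261-GSCs replicate 2, 3 or 4. It was also lost with limma-voom and with GL261-GSCs replicates 1 and 2 only. In the same 6 fits Ifit1 was called in 1, Ifnar1 in 2, Jak2 in 3 and Ifngr2 in 4. Cxcl10 did not share that gap, at 94.3 and 68.6 CPM in the same libraries. Without GL261 replicate 1 the counts of the list were 1 higher and 1 lower, and without replicate 2 they were 0 and 2. They were 4 and 7 without GL261-GSCs replicate 1, 3 and 2 without replicate 2, 1 and 2 without replicate 3, and 2 and 2 without replicate 4. With GL261-GSCs replicates 1 and 2 only they were 3 and 5, and with replicates 3 and 4 only 5 and 8. Over all genes 39.8% and 54.9% were called in those 2 fits.

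Of 11 genes that encode proteases or factors of RNA decay 9 were tested, 0 rose and 4 fell, against 15.8% and 14.1% of all genes. Their median log2 fold change was -0.64, against 0.04 over all genes. Adam10, which sheds Cx3cl1, fell from 205 and 234 CPM to 72.3 to 92.2 CPM (-1.43 ± 0.15 SE; edgeR adjusted p = 0.000951). Mmp14, a membrane protease, fell by 1.95 and Zfp36, which destabilises cytokine RNA, fell by 1.29 on the log2 scale (edgeR adjusted p = 0.0347 and 0.000994). Zfp36l1 was the other. Without either GL261 library or GL261-GSCs replicate 3, Adam10 and Zfp36 alone were called. With GL261-GSCs replicates 1 and 2 only 4 fell, and with replicates 3 and 4 only 6 fell, where 39.8% and 54.9% of all genes were called. Adam17, the other sheddase of Cx3cl1, was at 39.8 to 47.4 CPM over both groups and was not called.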

How the data were processed

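Single-cell RNA was measured in 2 GL261 and 4 GL261-GSCs libraries. The authors deposited raw UMI counts per gene and barcode, made with Cell Ranger 4 per the file headers; the submitters' processing notes name the build mm10. No barcode had been filtered, and its other settings are not stated in the labels or headers used. A cell was a barcode with 500 or more genes, under 10% mitochondrial UMIs, and UMIs of at least 10% of a reference, the 99th percentile among the 3000 largest barcodes. Doublets were not removed. UMIs were summed per library and compared with edgeR 4.0.16 in R 4.3.3 (TMM, filterByExpr, 2-sided, no block), after a test on simulated data. The SE is the absolute log2 fold change over the root of F. CPM values use TMM-scaled library sizes. Genes and promoters were matched to GENCODE M21 and RefSeq annotation of GRCm38. Shares of cells have exact binomial intervals and exact permutation tests (scipy 1.17.1). Alternatives were DESeq2 1.42.0, limma-voom (limma 3.58.1), other scalings, filters, cell calls, a replicate block and leaving out libraries.

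The genes and lists were chosen with earlier results of these data known, so that no list has a test of its own. Besides the 10 genes, the text names the 3 largest rises and falls of each list of related genes. These had an adjusted p under 0.05, no overlap and an average log2 CPM of at least 3. It also names some, not all, list genes with 0 to 3 UMIs in a group, and the 5 genes most correlated where the mean is at least 0.1. Others were named after their values were seen, where a count is small or they act on a gene described.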

Additional observations from a re-analysis of the deposited data

Results flagged for a closer look

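Of 36 sets of 4 GL261-GSCs values, 7 held a library far from the other 3. Chance does so in about 1 in 20 independent sets, a rate that cannot be set against these 7: Ccl2, Ccl7 and Csf1 each count both as CPM and as a share of cells, and in the sets of Ccl7 and Cxcl1 the other 3 libraries were all at 0, where any count stands apart. In GL261-GSCs replicate 2, Ccl2 was at 8.46 CPM where the others were at 0 to 0.106 CPM, and 0.528% of thinned cells had a Ccl2 UMI. Ccl7 in that library was at 0.759 CPM and in 0.0681% of cells, where the others had 0 UMIs. Csf1 in that library was at 22.8 CPM, against 9.34 to 10.5 CPM, and in 4.82% of cells, against 2.23% to 2.42%. Of the cells with Ccl2 there, 44.9% also had a Csf1 UMI before thinning, against 19.9% of the other cells. In GL261-GSCs replicate 1, Cxcl1 was at 0.0303 CPM, which is 2 UMIs in 1 cell.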

How the results depend on the processing

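Il33 and Csf1 were called in 15 of 17 alternatives and Cxcl10 in 14, each with its direction unchanged in all 17. Ccl5, Cx3cl1 and Mif, not called in the main fit, kept their directions in all 17 as well. The log2 fold change of Il33 ranged from 2.60 to 3.91, of Csf1 from -2.14 to -1.41 and of Cxcl10 from -5.02 to -2.76. The number of the 10 genes called was 3, and 0 to 3 when a library was left out. It was 5 with the replicate block, which added Ccl5 and Cx3cl1. GL261-GSCs replicates 3 and 4 have no GL261 library of their number, so that this block compares replicates 1 and 2 of each group. The number was also 5 with GL261-GSCs replicates 3 and 4 only, where 9881 of all genes were called. Over all genes 5514 were called, and 1817 to 6193 when a library was left out. The block called 6512 (35.3%), Ccr2 as higher among them. For same-numbered libraries, the deviations of log2(CPM + 1) from the group mean correlated over genes at -0.0071 and 0.071. With 2 GL261 libraries such deviations mirror each other, so that swapping the GL261 replicate only turns the sign. No label ties same-numbered libraries. Ccl2 ranged from -3.01 (without GL261-GSCs replicate 2) to 3.54 when a library was left out. It turned to -1.19 with limma-voom and -5.12 with GL261-GSCs replicates 3 and 4 only. Ccl7 turned to -2.42 with limma-voom and was fitted in 15 of the 17 alternatives. It had too few UMIs to be fitted without GL261-GSCs replicate 2 or with replicates 3 and 4 only. The difference in share of thinned cells (GL261-GSCs minus GL261, percentage points) was -0.0334 (without GL261-GSCs replicate 2) to 0.143 for Ccl2 when a library was left out. For Ccl7 it turned to 0.0265 without thinning, 0.00523 with barcodes of at least 1000 UMIs and ranged from -0.0204 (without GL261-GSCs replicate 2) to 0.00232 (without replicate 1, 3 or 4). For Mif it turned to -13.2 with the free RNA share subtracted, and ranged from -0.814 (without GL261 replicate 1) to 3.35. The cause was not tested. With 2 GL261 libraries, leaving out 1 leaves a lone sample that is assumed to vary like the other group.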

Other observations

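Ifnar2, Ifnar1 and Ifngr2 lie in the same region of chromosome 16 in GRCm38, with other genes between them. Ifnar2 starts at 91372783 and Ifngr2 ends at 91565623. Their levels took the same steps across the libraries, lowest in GL261 and highest in GL261-GSCs replicates 3 and 4. Ifnar1 was at 23.4 and 22.5 CPM in GL261, 33.4 and 38.8 CPM in GL261-GSCs replicates 1 and 2, and 75.9 and 72.8 CPM in replicates 3 and 4. Ifngr2 was at 20.5 and 19.3, then 33.8 and 40.2, then 70.6 and 64.3 CPM. Ifnar2, which was called without GL261-GSCs replicate 1 and with replicates 3 and 4 only but not over all 6 libraries, was at 39.5 and 40.9, then 44.7 and 53.1, then 105 and 101 CPM. Ifngr1, on chromosome 10, was at 45.7 and 45.2 CPM in GL261 and 35.6 to 58.2 CPM in GL261-GSCs.

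Cxcl2, a neutrophil chemokine of the Cxcl1 family, was high in a single library, as Ccl2 was. It was at 11.7 CPM in GL261-GSCs replicate 1, against 0 to 0.193 CPM in the other GL261-GSCs libraries and 0.182 and 0.385 CPM in GL261. Vegfa, an angiogenic factor, was at 66.4 and 126 CPM in GL261-GSCs replicates 3 and 4 and at 16.3 to 20.1 CPM in the other 4 libraries. These genes were named after their values were seen.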
